A study of Mus musculus with 12 samples.

Results

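Endoplasmic reticulum (ER) stress chaperones are represented here by 10 nuclear genes whose transcription is known to be raised by the ER stress factors ATF6 and XBP1. They were taken by symbol from the 44450 loci listed in each file, and all 10 were among the 12181 loci with at least 1 FPKM (fragment counts divided by transcript length and by the size of the library) in at least 3 of 6 libraries. The libraries were made from total RNA of whole hearts of C57BL/6N mice aged 11 weeks. In the 3 knockout libraries the Mrpp3 gene was loxP-flanked on both alleles and Cre was present (genotype +/Ckmm), expressed from the promoter of muscle creatine kinase. The 3 control libraries had the same loxP-flanked alleles without Cre, so an effect of Cre itself cannot be told apart from loss of the gene. MRPP3 is the catalytic protein of the RNase P of mitochondria, which frees tRNAs from longer transcripts, and its gene is now called Prorp. Cre under this promoter acts in muscle cells, so other cells of the heart keep the gene. A further 6 libraries of mitochondrial RNA ends were not analysed here.

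Proteins that enter the ER are folded there by chaperones, among them BiP and GRP94, and by disulfide isomerases. When unfolded proteins accumulate, the membrane sensors IRE1, ATF6 and PERK are activated. IRE1 splices Xbp1 mRNA into the form that encodes an active factor, ATF6 is cut by the proteases encoded by Mbtps1 and Mbtps2, and both factors raise chaperone genes through promoter elements. PERK phosphorylates eIF2 and so favours translation of ATF4, a route that other eIF2 kinases share without any ER signal. In heart muscle these chaperones also serve the folding of calcium-handling and secreted proteins. The comparison asks whether RNA of these genes differed between knockout and control hearts.

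The promoter windows are shown because the members carry different elements. RefSeq windows (build GRCm38.p6, from 250 bases before to 50 bases after the gene's start) were matched for 9 of the 10 members, all but Manf. Capitals mark the fixed letters of the ER stress element (ERSE, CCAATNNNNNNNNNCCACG) in Hspa5, Hsp90b1, Calr and Creld2. In Herpud1 they mark ERSE-II (ATTGGNCCACG) and a composite of ATF4 and C/EBP type (TGATGNAA). Both strands were searched, and a match on the other strand reads as the reverse complement. Dnajb9 is shown as a member with none of these motifs. The windows of Pdia4, Xbp1 and Sdf2l1, not shown, also held none of them. The windows lie at chr2:34771840-34772139 (plus strand) for Hspa5, chr10:86705395-86705694 (minus) for Hsp90b1, chr8:84846882-84847181 (minus) for Calr and chr15:88819396-88819695 (plus) for Creld2. Those of Herpud1 and Dnajb9 lie at chr8:94386179-94386478 (plus) and chr12:44210019-44210318 (minus).
Hspa5: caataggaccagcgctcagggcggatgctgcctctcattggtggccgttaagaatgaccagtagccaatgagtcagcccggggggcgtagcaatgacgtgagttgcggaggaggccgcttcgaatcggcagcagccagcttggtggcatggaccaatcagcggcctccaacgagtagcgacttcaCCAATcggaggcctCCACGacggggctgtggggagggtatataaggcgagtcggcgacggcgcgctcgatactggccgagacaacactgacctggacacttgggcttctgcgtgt
Hsp90b1: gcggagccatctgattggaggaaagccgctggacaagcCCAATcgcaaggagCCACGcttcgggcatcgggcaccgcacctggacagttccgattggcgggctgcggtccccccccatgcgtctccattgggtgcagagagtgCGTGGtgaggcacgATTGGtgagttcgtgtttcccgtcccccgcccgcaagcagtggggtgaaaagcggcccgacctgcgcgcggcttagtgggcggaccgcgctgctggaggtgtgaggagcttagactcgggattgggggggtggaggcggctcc
Calr: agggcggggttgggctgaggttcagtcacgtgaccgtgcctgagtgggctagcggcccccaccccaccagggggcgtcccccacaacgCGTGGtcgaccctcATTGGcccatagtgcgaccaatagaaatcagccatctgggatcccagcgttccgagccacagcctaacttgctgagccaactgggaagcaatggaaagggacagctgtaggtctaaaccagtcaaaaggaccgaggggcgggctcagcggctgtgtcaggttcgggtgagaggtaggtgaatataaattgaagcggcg
Creld2: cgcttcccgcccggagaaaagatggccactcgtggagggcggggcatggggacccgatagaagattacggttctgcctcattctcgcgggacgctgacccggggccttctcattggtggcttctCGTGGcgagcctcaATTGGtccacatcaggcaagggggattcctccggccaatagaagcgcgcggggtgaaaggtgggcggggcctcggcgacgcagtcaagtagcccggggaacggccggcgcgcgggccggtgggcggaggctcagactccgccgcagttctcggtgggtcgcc
Herpud1: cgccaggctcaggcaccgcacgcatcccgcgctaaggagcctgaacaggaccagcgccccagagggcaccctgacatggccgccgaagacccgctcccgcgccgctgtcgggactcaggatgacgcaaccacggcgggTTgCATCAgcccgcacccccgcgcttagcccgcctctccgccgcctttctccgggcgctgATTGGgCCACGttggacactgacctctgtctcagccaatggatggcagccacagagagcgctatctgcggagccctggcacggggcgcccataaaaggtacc
Dnajb9: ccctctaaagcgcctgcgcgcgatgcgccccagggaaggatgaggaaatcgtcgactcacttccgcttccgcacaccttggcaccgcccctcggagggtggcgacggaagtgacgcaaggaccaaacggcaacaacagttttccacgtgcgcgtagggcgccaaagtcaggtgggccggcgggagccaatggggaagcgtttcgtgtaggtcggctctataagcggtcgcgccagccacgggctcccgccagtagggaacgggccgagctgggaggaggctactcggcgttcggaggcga

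In these windows an ERSE was found in 4 of the 9 members, against 0.119% of all 32851 RefSeq windows of the same length. The Hspa5 match began 65 bases before the start, and Hsp90b1 held a match at 212 and another at 107 bases before its start. ERSE-II was found in 1 member, Herpud1, against 0.0365% of windows, and the ATF4 and C/EBP composite also in Herpud1 alone, against 3.97%. The core of the XBP1 element was searched only as TGACGTGG, which was in no member window, against 0.676% of all windows. The Hspa5 window holds TGACGTGA, which differs in its last letter and was not searched for. The CCACG end of an ERSE, which every full ERSE contains, was in 8 of 9 members, against 32.8%, and the CCAAT box, its other end, in 8 of 9, against 37.4%. Such matches describe letters in a window and do not show that a factor binds there. The members were picked as known targets of ATF6 and XBP1, so their share with an ERSE or ERSE-II is no independent result.

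The label of the hearts and of the knockout could be checked in the same files. Prorp, listed as 1110008L16Rik, had 0.441, 0.701 and 0.555 FPKM in knockout hearts, against 3.49, 2.64 and 3.23 FPKM in control hearts, and every knockout library lay below every control. The 10 cardiomyocyte markers summed to between 7732 and 17591 FPKM in knockout libraries and between 32414 and 37225 FPKM in control libraries, so heart muscle transcripts were abundant in all 6. Of these markers 6 fell and 4 did not pass the test, and 3 fell when any one control was left out or after quantile normalization, and 2 with no filter on low values. Macrophage markers summed to between 199 and 325 FPKM in knockout libraries and between 77.0 and 79.9 FPKM in control libraries, and 7 of 9 rose. A large part of each knockout sum was Lgals3, at 80.4, 190 and 142 FPKM, against a mean of 1.07 FPKM in controls. Fcgr1, also counted among the 7, had 0.259, 0.418 and 0.976 FPKM in controls. It passed the filter of 1 FPKM through the knockout libraries alone. Fibroblast markers summed to between 381 and 673 FPKM in knockout hearts and between 335 and 410 FPKM in control hearts, and 5 of 8 rose, or 3 when any one control was left out or with no filter. Over all loci 19.5% fell and 16.1% rose. Blood markers summed to 21895 FPKM in knockout replicate 2, against 622 FPKM in knockout replicate 1, 2010 FPKM in knockout replicate 3 and at most 2902 FPKM in any control. The atrial markers summed to 13847 FPKM in knockout replicate 2, against 2066 FPKM in knockout replicate 1, 2330 FPKM in knockout replicate 3 and no more than 121 FPKM in any control, so this library stood apart on both sums. Most of each knockout sum was Nppa, at 1948, 10527 and 2327 FPKM. Myl4 had 66.1, 2290 and 3.35 FPKM in knockout libraries, against 1.33 to 4.09 FPKM in controls. Myl7 had 43.5, 911 and 0.096 FPKM, against 0 to 1.90 FPKM, so knockout replicate 3 lay within the control range for both. Judged by the size of the smallest value steps, the knockout libraries were sequenced 2.57, 2.06 and 2.19 times as deeply as control replicate 1, and the remaining controls 1.32 and 1.35 times. What part the markers or the depth had in the results below was not tested. In bulk tissue, fewer cells of a type and less RNA per cell cannot be told apart.

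As deposited, 4 of the 10 ER chaperone genes fell in knockout hearts, 0 rose and 6 did not pass the test (limma, adjusted p under 0.05 over all loci). The shares over all 12181 loci were 19.5% lower and 16.1% higher. The members that fell were Hspa5, Hsp90b1, Calr and Manf, and Herpud1 and Dnajb9 had positive changes that missed the threshold. The median log2 fold change (knockout over control, on log2(FPKM + 0.5)) was -0.27 over the 10 members and -0.02 over all loci. By unadjusted p under 0.05, 2 members were higher and 5 lower, against 21.3% and 25.5% of all loci. Every knockout library lay below every control for 5 members (28.7% of all loci) and above every control for 1 member (23.6% of all loci).

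**Figure D1:**
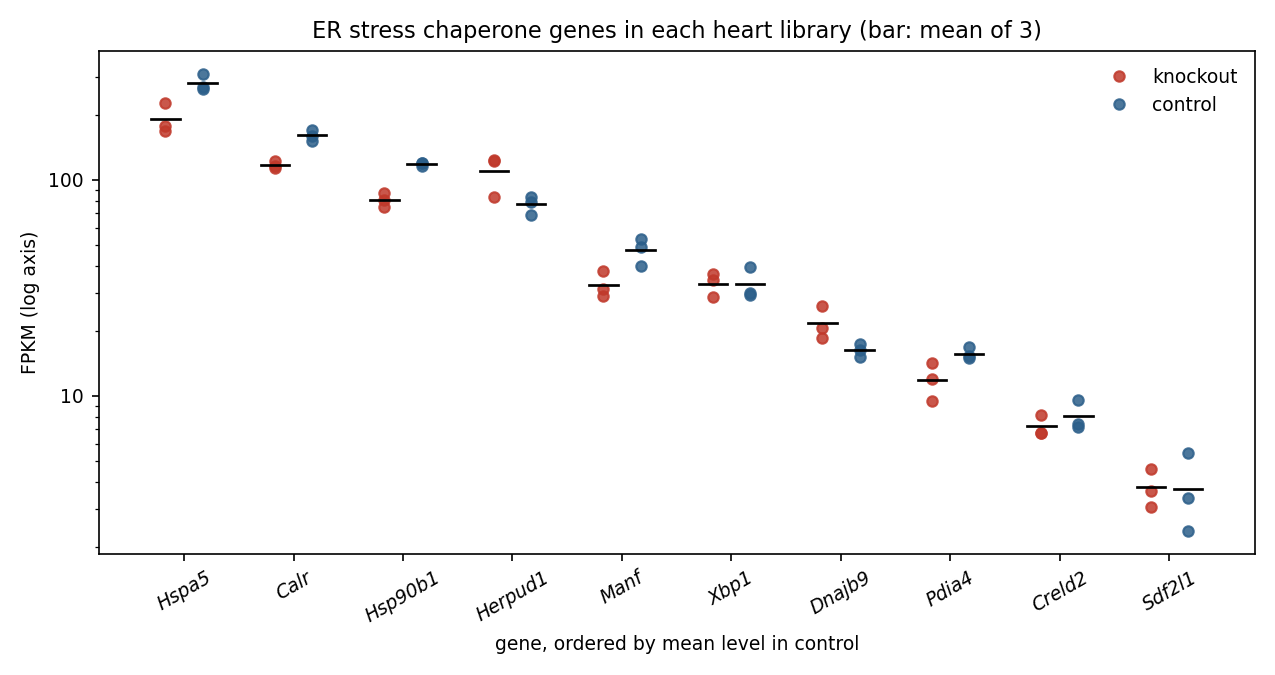
FPKM of the 10 genes in each library on a log axis, with 3 knockout libraries (red) and 3 control libraries (blue) per gene and a bar at each mean. Hspa5, Calr, Hsp90b1, Manf and Pdia4 lie lower in every knockout library than in any control, and Dnajb9 higher.

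Among the luminal chaperones, Hspa5 encodes BiP, the HSP70 of the ER and the protein that holds the stress sensors inactive. It had 178, 168 and 227 FPKM in knockout hearts, against 262, 268 and 310 FPKM in control hearts. The groups did not overlap, and knockout replicate 3 came nearest to the controls. Its log2 fold change was -0.56 (SE 0.17, limma adjusted p = 0.040), which is 0.678 times the control level. Hsp90b1 encodes GRP94, the HSP90 of the ER, and its locus also carries the names Gm15344 and Gm25745. The locus had 74.9, 87.2 and 80.3 FPKM in knockout hearts, against 120, 119 and 115 FPKM in control hearts. The controls lay close together, and all knockout libraries lay well below them. The log2 fold change was -0.55 (SE 0.12, limma adjusted p = 0.013).

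Calr encodes calreticulin, a lectin chaperone that also stores calcium. It had 115, 114 and 122 FPKM in knockout hearts, against 159, 152 and 170 FPKM in control hearts. No library of the knockout reached the lowest control, and the change was -0.45 on the log2 scale (SE 0.13, limma adjusted p = 0.030). Pdia4 encodes the disulfide isomerase ERp72, and its locus also carries Mir704. It had 12.0, 14.1 and 9.42 FPKM in knockout hearts, against 14.9, 15.3 and 16.8 FPKM in control hearts. The groups did not overlap, though knockout replicate 2 stood close to the lowest control, and the difference missed the threshold (log2 fold change -0.41, SE 0.16, limma adjusted p = 0.084). RefSeq places the gene, on GRCm38, at 47796141 to 47813512 on chromosome 6.

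Among the co-chaperones of BiP, Dnajb9 encodes ERdj4, a J protein that directs misfolded clients towards degradation. It had 20.7, 18.5 and 25.9 FPKM in knockout hearts, against 17.4, 15.2 and 16.3 FPKM in control hearts. All knockout values were above all control values, but the spread within the knockout group was wide, and the change did not pass (log2 fold change 0.39, SE 0.15, limma adjusted p = 0.075). Sdf2l1, a partner of the J protein and BiP complex in the ER, was the lowest member. It had 3.06, 4.60 and 3.64 FPKM in knockout hearts, against 2.37, 3.38 and 5.43 FPKM in control hearts. The controls bracketed the knockouts, and the 95% interval of the log2 fold change ran from -0.57 to 0.70. Sdf2l1 lies at 17130138 to 17132383 on chromosome 16.

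Manf and Creld2 encode small proteins of the ER lumen that are secreted under ER stress. Manf had 28.8, 37.7 and 31.1 FPKM in knockout hearts, against 48.6, 39.9 and 53.0 FPKM in control hearts. Knockout replicate 2 and control replicate 2 lay close together at the edges of their groups. The log2 fold change was -0.53 (SE 0.16, limma adjusted p = 0.037). Its locus is shared with Rbm15b, an RNA-binding protein gene, so the value may hold fragments of both. Manf itself lies at 106888753 to 106891938 on chromosome 9. Creld2 had 6.75, 6.73 and 8.18 FPKM in knockout hearts, against 7.39, 7.17 and 9.54 FPKM in control hearts. These groups overlapped, and the 95% interval of the log2 fold change, -0.49 to 0.21, holds both falls and small rises.

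Xbp1, the factor whose mRNA is spliced by IRE1, had 28.5, 34.2 and 36.5 FPKM in knockout hearts, against 30.04, 29.4 and 39.6 FPKM in control hearts. The range was nearly the same in both groups, with a log2 fold change of 0.01 and a 95% interval from -0.37 to 0.39. A locus has 1 value in the files, so spliced and unspliced Xbp1 were not analysed here. The gene lies at 5520641 to 5525993 on chromosome 11. Herpud1 encodes a membrane protein of the ER degradation complex. It had 82.8, 123 and 122 FPKM in knockout hearts, against 68.7, 78.6 and 83.2 FPKM in control hearts. Knockout replicates 2 and 3 stood far above the controls, while knockout replicate 1 lay just under the highest control. Herpud1 did not pass the test (limma adjusted p = 0.080). Its log2 fold change was 0.49 (SE 0.19), with a 95% interval that ran from 0.05 to 0.92. Without knockout replicate 1 it rose (log2 fold change 0.67, limma adjusted p = 0.025), while array weights gave 0.19 (limma adjusted p = 0.27).

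The order of the members by mean FPKM differed a little between the groups. In knockout hearts it ran Hspa5, Calr, Herpud1, Hsp90b1, Xbp1, Manf, Dnajb9, Pdia4, Creld2 and Sdf2l1. In control hearts it ran Hspa5, Calr, Hsp90b1, Herpud1, Manf, Xbp1, Dnajb9, Pdia4, Creld2 and Sdf2l1. Xbp1 and Manf overlapped in the knockout libraries, as did Herpud1 with Calr and with Hsp90b1. Summed over the 10 members, the level was 550, 607 and 666 FPKM in knockout libraries and 730, 728 and 818 FPKM in control libraries. As a share of all FPKM in the library it was 0.118, 0.133 and 0.129% in knockouts and 0.140, 0.127 and 0.139% in controls, and on this scale the groups overlapped.

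The falls depend on how libraries are set on a common scale. When each library was scaled to the same sum, the median log2 fold change of all loci moved to 0.20, against -0.02 as deposited. Then 0 members fell and 2 of 10 rose, Dnajb9 (0.62, limma adjusted p = 0.011) and Herpud1 (0.72, limma adjusted p = 0.013). Of all 12181 loci, 3229 rose and 1400 fell with this scaling. Relative to the median of all loci the members' median stayed at -0.25 under both scalings. Hspa5 stood at -0.33 on that scaled fit (limma adjusted p = 0.086) and Hsp90b1 at -0.32 (limma adjusted p = 0.092). After quantile normalization 0 members fell and 1 rose, Dnajb9 (limma adjusted p = 0.025), while 2156 of 12181 loci rose and 2489 fell. Median-of-ratios scaling left 4 members lower and 1 higher, again Dnajb9 (limma adjusted p = 0.044), with 2173 loci higher and 2252 lower. Across all 17 alternative settings Hspa5, Hsp90b1, Calr, Manf and Pdia4 had a log2 fold change below 0 and Dnajb9 and Herpud1 one above 0. Creld2 changed sign when scaled to one sum. The calls also changed when single libraries were left out. Without any one control or knockout replicate 1, Hspa5, Hsp90b1 and Calr did not pass, with adjusted p from 0.051 to 0.14. Manf did not pass without control replicate 1 or 3 or knockout replicate 1 or 3 (adjusted p 0.073 to 0.13). Without knockout replicate 2, 5 members fell, Pdia4 now among them, and Dnajb9 rose (log2 fold change 0.50, limma adjusted p = 0.028). Of the 11810 loci in that fit, 1954 rose and 2384 fell.

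**Figure D2:**
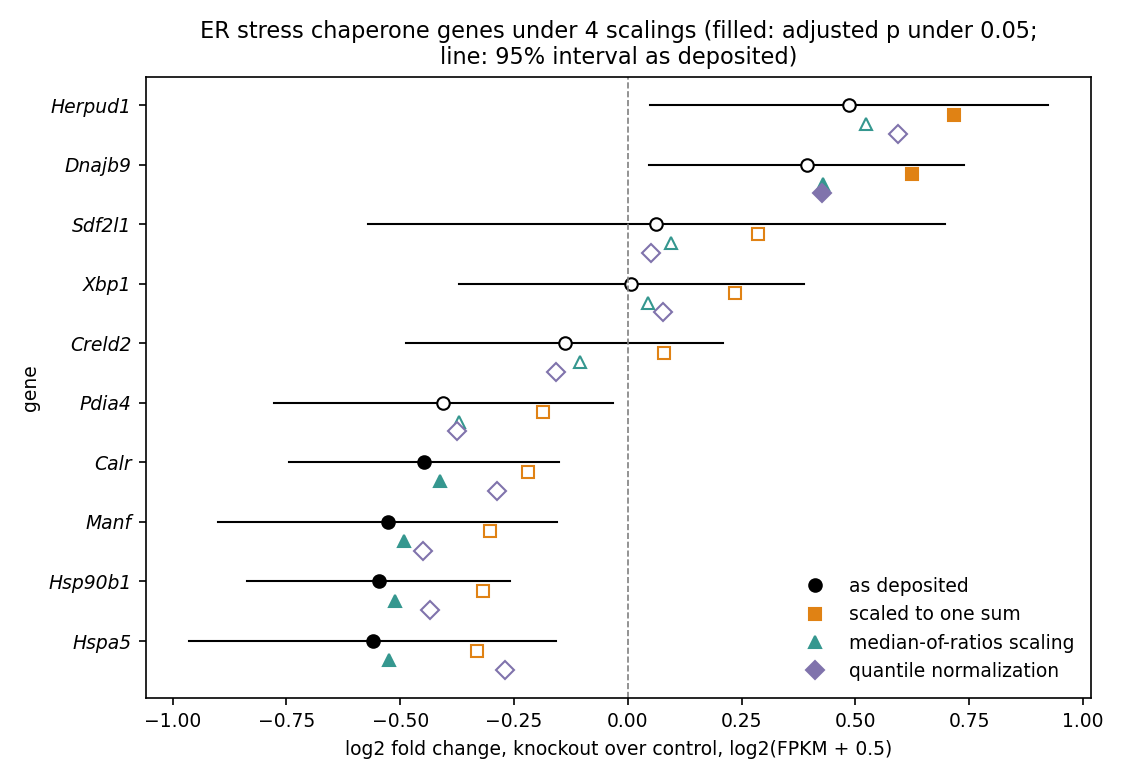
Log2 fold change of each gene, knockout over control, as deposited (black, with its 95% interval) and under 3 further scalings, with filled symbols for adjusted p under 0.05. From Hspa5 to Pdia4 every symbol lies below 0 and for Dnajb9 and Herpud1 every symbol lies above 0, while scaling to one sum moves all genes to the right, Creld2 across 0, and leaves none called lower.

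Ratios between genes of the same library do not change when a library is multiplied by a factor, as in sum or median-of-ratios scaling, but do under quantile normalization. They are given as a description, chosen after the values were seen. Dnajb9 over Hspa5 was 0.117, 0.110 and 0.114 in knockout libraries and 0.0663, 0.0566 and 0.0527 in control libraries. The groups lay well apart, with the knockout libraries nearly equal to each other. Herpud1 over Hspa5 was 0.466, 0.733 and 0.536 in knockout libraries and 0.262, 0.293 and 0.269 in control libraries, also without overlap. Xbp1 over Hspa5 averaged 0.175 ± 0.0251 in knockouts and 0.117 ± 0.00949 in controls (SD, n = 3 each), without overlap. The ratios of Calr, Hsp90b1 and Manf to Hspa5 overlapped between the groups. Calr over Hspa5 averaged 0.622 ± 0.0734 in knockouts and 0.574 ± 0.0296 in controls. Hsp90b1 over Hspa5 averaged 0.432 ± 0.0836 in knockouts and 0.425 ± 0.0461 in controls, and Manf over Hspa5 0.175 ± 0.0451 in knockouts and 0.169 ± 0.0186 in controls.

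**Figure D3:**
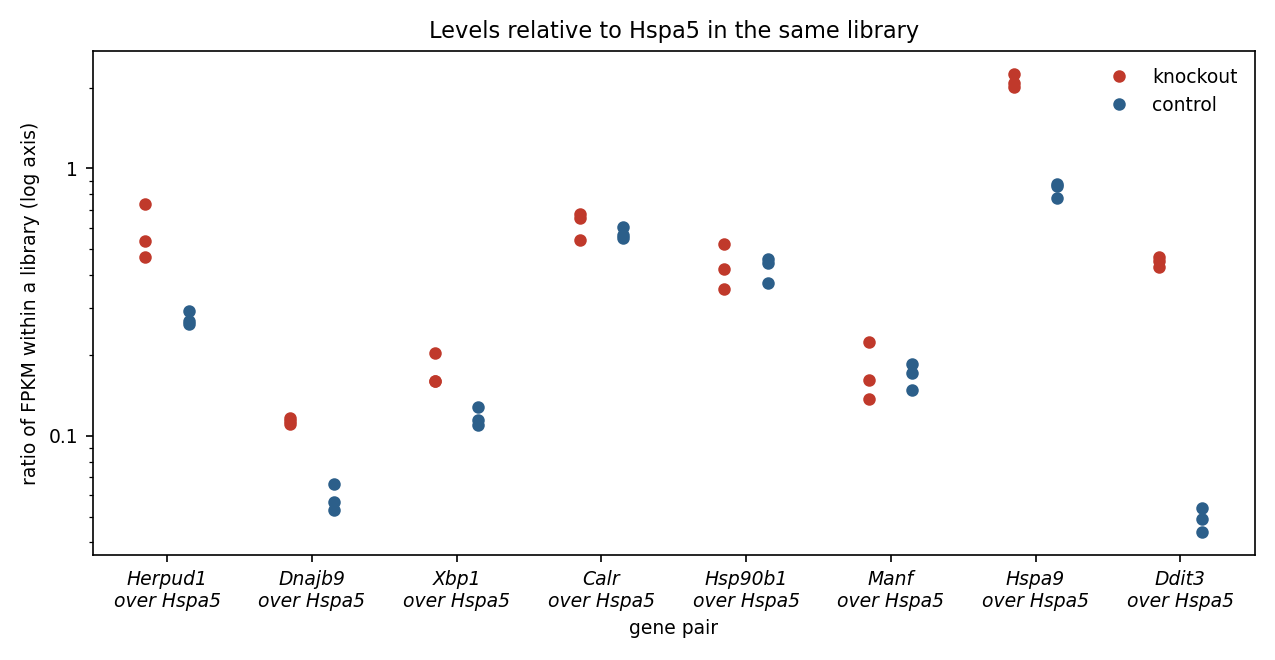
Ratio of FPKM between 2 genes of the same library on a log axis, for knockout (red) and control (blue) libraries. Herpud1, Dnajb9, Xbp1, Hspa9 and Ddit3 over Hspa5 separate the groups, and Calr, Hsp90b1 and Manf over Hspa5 overlap.

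Genes that sense or relay ER stress were higher in part. Of 11 measured sensors and transcription factors of the unfolded protein response, 3 rose, 2 fell and 6 did not pass (27.3% and 18.2%, against 16.1% and 19.5% of all loci). Ern1, which encodes IRE1, had 7.27, 9.07 and 14.6 FPKM in knockout hearts, against 3.36, 3.53 and 3.11 FPKM in control hearts, so each knockout library lay far above every control (log2 fold change 1.44, SE 0.23, limma adjusted p = 0.0037). Atf6 had 40.0, 51.3 and 63.1 FPKM in knockout hearts, against 24.7, 27.7 and 25.5 FPKM in control hearts (log2 fold change 0.95, limma adjusted p = 0.0061). Creb3, an ER membrane factor related to ATF6, also rose, by 0.69 on the log2 scale. Eif2ak3, which encodes PERK, did not pass (log2 fold change 0.49, limma adjusted p = 0.059). The factors that fell were Nfyb and Nfyc, subunits of the NF-Y complex that binds the CCAAT end of an ERSE. The remaining subunit gene, Nfya, did not pass (log2 fold change -0.06, limma adjusted p = 0.77). Nfyb averaged 3.27 ± 0.433 FPKM in knockouts and 5.23 ± 0.258 FPKM in controls (limma adjusted p = 0.011), and Nfyc did not pass when any one library except knockout replicate 3 was left out. When scaled to one sum 5 of the list rose and 0 fell. RNA levels of the sensors do not report whether the proteins were active.

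The ATF4 and CHOP genes, which PERK or another eIF2 kinase can raise, were mostly higher. Of 14 measured, 11 rose (78.6%, against 16.1% of all loci), 1 fell and 2 did not pass, with a median log2 fold change of 2.36. The gene that fell was Vldlr, a lipoprotein receptor gene, by 1.04 on the log2 scale. This list was already known to rise in these hearts and is given for scale. Ddit3, which encodes CHOP, had 75.7, 75.8 and 106 FPKM in knockout hearts, against 11.4, 13.2 and 16.7 FPKM in control hearts (log2 fold change 2.60, SE 0.19, limma adjusted p = 0.00031). Ddit3 over Hspa5 averaged 0.449 ± 0.0210 in knockouts and 0.0489 ± 0.00514 in controls (SD, n = 3 each). Trib3, a pseudokinase induced by CHOP, averaged 45.1 ± 14.5 FPKM in knockouts and 0.697 ± 0.109 FPKM in controls. Chac1, a glutathione-degrading enzyme induced by ATF4, averaged 28.2 ± 12.4 FPKM in knockouts and 1.12 ± 0.512 FPKM in controls. Trib3 and Sesn2, both counted among the 11 that rose, passed the filter of 1 FPKM through the knockout libraries alone. Vldlr did not pass when any one library except knockout replicate 3 was left out.

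Other ER chaperones and folding enzymes were split in direction. Of 24 measured, 5 rose (20.8%), 2 fell (8.33%) and 17 did not pass, against 16.1% and 19.5% of all loci. The median log2 fold change was 0.07. Ero1l, the oxidase that recharges disulfide isomerases and a known CHOP target, had 13.1, 11.9 and 19.1 FPKM in knockout hearts, against 3.14, 3.44 and 3.26 FPKM in control hearts (log2 fold change 1.98, SE 0.18, limma adjusted p = 0.00050). The isomerase gene Txndc5 averaged 23.1 ± 3.22 FPKM in knockouts and 11.8 ± 0.657 FPKM in controls (limma adjusted p = 0.0023). Fkbp2, a prolyl isomerase of the ER, rose by 0.87. Cdnf, the paralog of Manf, fell by 0.81 on the log2 scale (limma adjusted p = 0.030), a call lost when scaled to one sum (adjusted p = 0.062). It was also lost without any one control (adjusted p 0.062 to 0.098). With that scaling 8 genes of the list rose and 0 fell, while 3 rose without control replicate 1 or 2.

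Genes of ER-associated degradation, the process Herpud1 serves, had 7 of 19 measured higher (36.8%), 1 lower (Erlec1, a lectin of this process, 5.26%) and 11 that did not pass. Over all loci 16.1% rose and 19.5% fell. Edem2, which trims mannose from misfolded glycoproteins, averaged 7.38 ± 0.843 FPKM in knockouts and 3.43 ± 0.171 FPKM in controls (log2 fold change 1.00, SE 0.12, limma adjusted p = 0.0014). Derl1, a channel protein of the degradation complex, averaged 30.6 ± 3.04 FPKM in knockouts and 17.1 ± 1.09 FPKM in controls (limma adjusted p = 0.0029). Nploc4, a cofactor of the extracting ATPase, also passed (log2 fold change 0.64, limma adjusted p = 0.042), and did not without any one control or knockout replicate 1. Without a control replicate the number higher was 3 or 4, and scaled to one sum it was 11. Of 18 genes of translocation and signal peptide cleavage, 2 rose (Sec61a1 and Ssr4), 2 fell (Sec61a2 and Sec11a) and 14 did not pass, and when scaled to one sum 7 rose and 0 fell. Erlec1 did not pass when any one library except knockout replicate 3 was left out, Sec11a without any one control or knockout replicate 1, and Ssr4 without control replicate 1 or 2. Sec61a1, the channel through which proteins enter the ER, averaged 26.5 ± 4.77 FPKM in knockouts and 13.7 ± 0.685 FPKM in controls (limma adjusted p = 0.0037).

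Known substrates of IRE1 mRNA decay gave 1 higher, 1 lower and 2 not passing of 4 measured. Bloc1s1, whose mRNA is a standard substrate of IRE1, averaged 66.1 ± 10.6 FPKM in knockouts and 105 ± 2.45 FPKM in controls (log2 fold change -0.68, SE 0.15, limma adjusted p = 0.012), at a locus shared with Rdh5. It did not pass without control replicate 2 or 3 (adjusted p = 0.053 for both). Pdgfrb rose by 0.43 on the log2 scale, a call lost without any one control or knockout replicate 1 (adjusted p 0.050 to 0.13). Among 12 calcium-binding proteins of the ER and its muscle form, the sarcoplasmic reticulum, 3 rose (25.0%), 4 fell (33.3%) and 5 did not pass, against 16.1% and 19.5% of all loci. Without knockout replicate 1 or control replicate 2 or 3, 0 rose, and without control replicate 1, 1 rose. With knockout replicate 1 or any one control left out, or scaled to one sum, 2 fell. Hrc, a calcium-binding protein of the sarcoplasmic reticulum, had 44.7, 19.2 and 42.1 FPKM in knockout hearts, against 358, 351 and 333 FPKM in control hearts (log2 fold change -3.37, SE 0.31, limma adjusted p = 0.00050). This was a much larger change than that of calreticulin. Casq2, the calsequestrin of heart muscle, averaged 209 ± 71.6 FPKM in knockouts and 362 ± 40.8 FPKM in controls (limma adjusted p = 0.041), and did not pass without any one control or knockout replicate 1 (adjusted p 0.074 to 0.13).

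Relatives of BiP and GRP94 act in the cytosol and in mitochondria. Of 9 measured HSP70 and HSP90 genes outside the ER, 1 rose (11.1%), 2 fell (22.2%) and 6 did not pass, against 16.1% and 19.5% of all loci. Hspa9, the HSP70 of mitochondria, had 401, 337 and 472 FPKM in knockout hearts, against 230, 231 and 240 FPKM in control hearts (log2 fold change 0.77, SE 0.17, limma adjusted p = 0.013). The call was lost without control replicate 2 (adjusted p = 0.065). Hspa9 over Hspa5 was 2.26, 2.01 and 2.08 in knockout libraries and 0.878, 0.863 and 0.777 in control libraries, so mitochondrial HSP70 RNA stood above BiP RNA in every knockout library and below it in every control. The genes that fell were the near-identical cytosolic Hspa1a and Hspa1b. Hspa1a had 0.421, 0.434 and 0.219 FPKM in knockout hearts, against 6.87, 11.6 and 18.6 FPKM in control hearts. Both genes passed the filter of 1 FPKM through the control libraries alone, and neither was in the fit when a control was left out. With both sum scalings and with array weights, 3 genes of the list rose. Trap1, the mitochondrial HSP90, averaged 41.6 ± 9.86 FPKM in knockouts and 52.6 ± 0.845 FPKM in controls and did not pass (limma adjusted p = 0.16), but fell without knockout replicate 3 (adjusted p = 0.040).

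**Figure D4:**
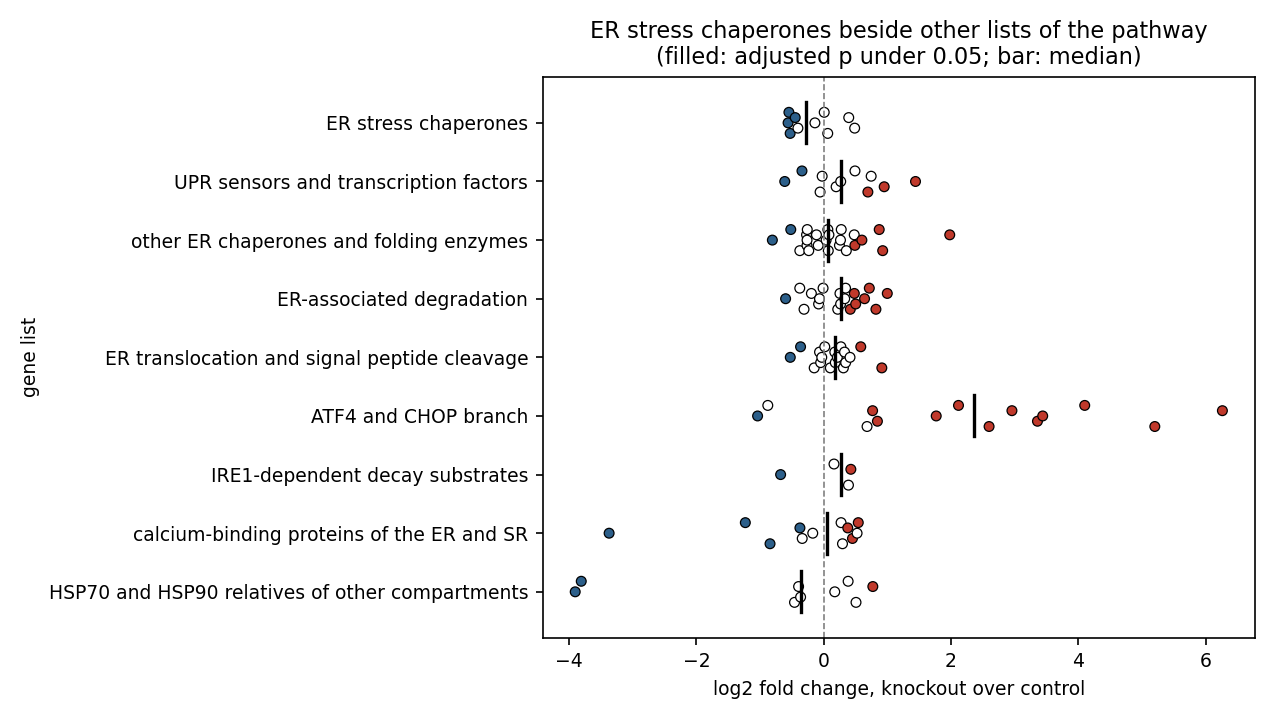
Log2 fold change, knockout over control, of each measured gene in the ER stress chaperones and 8 other lists, as deposited, with filled points for adjusted p under 0.05 and a bar at the median. The chaperones lie between -0.56 and 0.49, around a median of -0.27, while the ATF4 and CHOP genes have a median of 2.36. When scaled to one sum, the median of all loci lies at 0.20 and no chaperone is called lower.

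The promoter elements can also be read across all genes. RefSeq windows with an ERSE belonged to 37 genes, of which 15 were measured. Among these 15, 0 rose, 5 fell (33.3%) and 10 did not pass, with a median log2 fold change of -0.38. These 15 include the members Hspa5, Hsp90b1 and Calr, which fell, and Creld2, so the counts partly repeat the results above. Over all loci 16.1% rose and 19.5% fell, with a median of -0.02. Scaled to one sum, 1 fell and 1 rose, and after quantile normalization 2 fell, with Acacb lower under both. As deposited, the genes outside the members that fell were only Dnajc3, which encodes the BiP co-chaperone p58IPK, and Acacb, an acetyl-CoA carboxylase. Dnajc3 averaged 9.60 ± 1.11 FPKM in knockouts and 13.9 ± 0.942 FPKM in controls (limma adjusted p = 0.017), and did not pass without control replicate 2 or 3 or knockout replicate 1 (adjusted p 0.053 to 0.069). Pdia6, a disulfide isomerase with an ERSE, averaged 27.5 ± 3.25 FPKM in knockouts and 35.7 ± 2.50 FPKM in controls and did not pass (limma adjusted p = 0.057), but fell without knockout replicate 2 (adjusted p = 0.015). Canx, the membrane-bound relative of calreticulin, averaged 99.0 ± 9.91 FPKM in knockouts and 116 ± 1.14 FPKM in controls and did not pass either (limma adjusted p = 0.20), with a sign that turned when libraries were scaled to one sum without mtDNA-encoded loci. Windows with an ERSE-II gave 8 measured genes, Herpud1 among them, of which 1 rose, Krtcap2, a subunit of the oligosaccharyltransferase (log2 fold change 0.81, limma adjusted p = 0.0027), and 0 fell. When scaled to one sum, 4 of these 8 rose, against 3229 of all 12181 loci. Of 242 measured genes with the ATF4 and C/EBP composite, 26.0% rose and 17.8% fell, against 16.1% and 19.5% of all loci. These counts are descriptions, and no test of the motif was made.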

How the data were processed

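Hearts gave 6 total RNA libraries (3 knockout, 3 control), grouped by source name and genotype. Whether each library is a separate animal is not in the labels, so a p-value reflects the spread between libraries, which may be technical. The authors deposited FPKM per locus, 1 library per file, per the file headers. Per the submitters' processing notes, the software included Cufflinks 2.2.1 with Cuffdiff, StringTie 1.1.0, the aligners HISAT 0.1.6 and HISAT2 2.0.1, and bedtools, Picard 1.23 and SAMtools 1.3, on GRCm38 (mm10). Which step used which tool, the annotation, any scaling between libraries and use of strand are not stated there. Loci that carry several gene names share 1 value.

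Values were tested as log2(FPKM + 0.5), which understates changes of low genes, without further scaling. Loci reaching 1 FPKM in 3 or more libraries, 12181 in number, were fitted with limma 3.58.1 in R 4.3.3 (moderated by empirical Bayes with a trend on the mean, two-sided tests, Benjamini-Hochberg over all loci, threshold 0.05). The fit was tested on simulated data. Read totals are not in the files, and whole reads were not recovered, so relative depth was read from the most frequent ratio of low values of pseudogenes and small RNAs, and no counting interval is given.

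The 10 members, the 16 other lists, the motifs and the tests were chosen with earlier results of these data known. Named are all members, and from each other list, marker lists excepted, genes among the 4 largest changes past the threshold. Not all of those genes are reported here. Ddit3, Sesn2, Vldlr, Erlec1, Eif2ak3, Nfya, Nfyc, Pdgfrb, Trap1 and the genes named for a promoter motif were added after their values were seen. So were the marker genes Nppa, Myl4, Myl7, Lgals3 and Fcgr1. Alternatives were other pseudocounts (0.1, 1), filters and scalings, a replicate block, no trend, array weights and each library left out. Replicate numbers were not used as pairs.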

Additional observations from a re-analysis of the deposited data

How the results depend on the processing

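Under other pseudocounts, median-of-ratios scaling, no variance trend and a filter of 5 FPKM, 4 members were lower, as reported. With no filter 2 were lower, with the sum scalings (with and without mtDNA-encoded loci) and quantile normalization 0, and with array weights 5. Members higher numbered 2 under both sum scalings and 1 under median-of-ratios scaling, quantile normalization and array weights. Leaving out 1 library gave 0 to 5 members lower and 0 to 1 higher. Over all loci the sum scalings gave 3229 and 3378 higher and 1400 and 1282 lower, and leaving out 1 library gave 1207 to 1954 higher and 1262 to 2384 lower. Creld2 turned to 0.080 and 0.11 under the sum scalings, and Canx to 0.027 under that without mtDNA-encoded loci. With array weights Sdf2l1 turned to -0.11 and Xbp1 to -0.10, and with 1 library left out Sdf2l1 ranged from -0.18 to 0.34 and Xbp1 from -0.068 to 0.14. The cause was not tested. With the replicate block 1 member was lower (Hsp90b1, adjusted p = 0.049) and 0 higher, with 1536 loci higher and 1807 lower. Same-numbered libraries did not deviate together (correlations -0.08, -0.06 and -0.01), and other-numbered libraries gave -0.08 to 0.12. With 3 libraries per group this cannot decide whether the numbers mark pairs, which the labels do not state. The controls were shallower than the knockouts, which limits low genes such as Sdf2l1 most.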
